A study of Mus musculus with 32 samples.

Results

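The comparison set the double-negative migratory dendritic cells (DN migDC) against migDC2, the CD11b-lineage migratory dendritic cells (DC), of skin-draining lymph nodes. It used 12 of the 32 libraries of the series, 6 of each subset. Members were chosen by the cell type label alone, within mice that carried floxed Ifngr1 alleles. Of each subset, 3 libraries came from CD11cCREneg/IFNgr1flfl mice (Cre-negative, labelled Ifngr1 WT) and 3 from CD11cCREpos/IFNgr1flfl mice (Cre-positive, labelled Ifngr1 KO). The floxed Ifngr1 gene, for the ligand-binding chain of the interferon-γ (IFN-γ) receptor, was therefore shared by all 12 libraries. The Cre recombinase is driven by the CD11c (Itgax) promoter, which is active in DC but also in some other leukocytes. The germline wild-type and knockout mice of the series entered no test. The age of the mice is not given in the sources used here.

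Migratory DC carry antigen from the skin to the draining node, where they arrive mature and express CCR7. Those of the CD11b lineage, called migDC2 here, depend in part on the transcription factors IRF4, KLF4 and ZEB2 and are linked to type 2 T cell help. The cross-presenting lineage depends on IRF8 and BATF3. DN migDC usually denotes migratory DC without CD11b (Itgam) and CD103 (Itgae), the integrins that separate the other migratory subsets. The labels name CD11b and CD103 for these libraries without giving the gate, so this reading is not stated there. Their relation to the 2 lineages is less well defined. In mouse skin, CD11b-low DC that need KLF4 and respond to interleukin-4 and interleukin-13 have been described.

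The assay was Omni-ATAC-seq, which finds open chromatin by the cuts of the Tn5 transposase. Each library was deposited as a list of peaks with a signal value per peak. The lists of DN migDC held 56959 to 74975 peaks on chromosomes 1 to 19 and X and those of migDC2 54657 to 74330. The means were 63776 ± 7442 (SD, n = 6) and 63127 ± 6342 (n = 6), and the difference of 648.7 was smaller than the spread between libraries (exact permutation within genotype and title series, two-sided p = 0.875, smallest possible p 0.0139). The lists hold no read counts, so sequencing depth is unknown. The sample titles come in 2 series, plain-numbered and lettered, with 1 plain-numbered and 2 lettered libraries per subset and genotype. Library similarity overlapped within and between subsets: peak strengths correlated with a median r of 0.92 over 15 pairs of DN migDC, 0.93 over 15 pairs of migDC2 and 0.90 over 36 pairs across subsets (described across regions, which share each library), with ranges of 0.82 to 0.96, 0.90 to 0.97 and 0.78 to 0.94. Within the same title series the medians were 0.93, 0.96 and 0.90. The plain-numbered Cre-positive DN migDC library (replicate 1) stood apart within its subset, with 74975 peaks against 56959 to 71186 in the other DN migDC libraries. Its median peak width was 401 bp against 469 to 577 bp, and its mean r with its own subset 0.86 against 0.90 to 0.93. Results were therefore also obtained without it, although the check of single libraries given below did not flag its mean r. The labels do not say that libraries came from separate animals, so the p-values rest on the spread among these libraries, and that spread may be technical in origin.

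Peak strength is given as a percentile. In each library the 54657 strongest peaks were ranked, a region took the percentile of its peak, and 0 means that no peak of the region was among them. A region with a peak can therefore stand at 0. The difference is always DN migDC minus migDC2, in percentile points ± the standard error (SE) of the limma fit, with genotype and title series as covariates. Of 60073 regions tested, 11555 (19.2%) passed at an adjusted p under 0.05. Of these, 4644 (7.73% of those tested) were higher and 6911 (11.5%) were lower in DN migDC, with median differences of 13.8 and -17.1. The median over all tested regions was 0.04. The 6 values of one subset lay wholly above those of the other in 4278 regions (7.12%), among them 1441 of the higher and 2634 of the lower ones. Most differences were of degree: 3259 of the higher and 4147 of the lower regions had a peak in all 12 libraries. Neighbouring regions can share 1 wide peak, so a count of regions is not a count of independent elements.

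Position set the directions apart. Within 1000 bp of a gene end, 1415 of 13599 regions (10.4%) were higher and 606 (4.5%) lower in DN migDC. In gene bodies 1900 of 26001 (7.3%) were higher and 3508 (13.5%) lower, and among distal regions, up to 50000 bp from a gene, 965 of 15379 (6.3%) were higher and 2067 (13.4%) lower. Regions lower in DN migDC thus lay mostly away from gene ends: 8.8% of them were at a gene end, against 30.5% of the higher ones and 23.9% of those that did not pass. The 2 sets of libraries did not differ much in how many of their called regions were at gene ends, with 21.4% to 24.2% in DN migDC and 20.8% to 24.4% in migDC2.

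The integrins named in the labels were checked first. CD11b and CD103 are surface proteins, while peaks show only open chromatin. Of 23 tested regions assigned to Itgam, Itgae and Itgax, 5 (21.7%) were lower and 0 higher in DN migDC. Of all tested regions, 11.5% were lower and 7.73% higher. An element 3.2 kb upstream of the Itgam start (chr7:128059143-128059687, mm10) was at percentiles 0 to 34.1 in DN migDC (median 22.9) and 34.4 to 43.8 in migDC2 (median 39.4), a difference of -18.4 ± 5.7 (adjusted p = 0.0434). This call did not hold in lettered libraries alone (-15.2, adjusted p = 0.112) or without any of 8 single libraries (adjusted p 0.0551 to 0.107). Within Itgae, the region chr11:73109739-73110462 had a peak in 1 of 6 DN migDC libraries and in 6 of 6 migDC2 libraries, where it reached 6.6 to 55.0 (difference -33.8 ± 5.8, adjusted p = 0.00284). In lettered libraries alone, 1 of the 23 integrin regions was lower (4.3%) and 0 higher, against 8.0% and 5.4% of all tested regions. The lower share of the 3 genes was thus not above the background there. At Itgax, which encodes CD11c, a region in the gene body (chr7:128138016-128138998) stood at 0, 2.5 and 20.2 in the Cre-negative and 26, 45.6 and 57.4 in the Cre-positive DN migDC libraries. In migDC2 it was at 17.6 to 33.2 without Cre and at 52.1 to 59.1 with Cre. Both subsets were thus higher with the CD11c-driven Cre, but this genotype difference and its cause were not tested. The subset difference was -15.9 ± 4.3 (adjusted p = 0.0256). It missed the threshold over the 30000 strongest peaks (-6.0, adjusted p = 0.298), in lettered libraries alone (-12.9, adjusted p = 0.177) and without any of 4 single libraries (-14.8 to -15.7, adjusted p 0.0536 to 0.066).

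Genes of the cDC2 and CD11b lineage held the largest share of lower regions among the lists. Of 181 tested regions, 56 (30.9%) were lower and 8 (4.4%) higher in DN migDC, against 11.5% and 7.73% of all tested regions, and the median difference was -4.14. Of the 56 lower regions, Sirpa gave 9, Zeb2 8 and Fosl2 6. Of 29 genes with a tested region, 14 had lower regions only, 1 had higher regions only and 6 had both. Without the DN migDC library that stood apart the counts were 58 lower and 11 higher. In lettered libraries alone they were 35 and 8.

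Sirpa, which encodes the surface receptor SIRPα that marks this lineage, had 9 lower regions and 1 higher region of 14. The region with the smallest p (chr2:129600868-129602547, gene body) was at 56.2 to 62.3 in DN migDC (median 59.9) and 69.0 to 75.9 in migDC2 (median 71.6), and the subsets did not overlap (difference -12.5 ± 1.6, adjusted p = 0.000528). A further element in the gene body, chr2:129604092-129604544, had no peak in any DN migDC library and a peak in all 6 of migDC2, at 13.1 to 41.2. One element outside the gene (chr2:129574721-129575521) went the other way, with 40.2 to 62.6 in DN migDC and 20.3 to 51.8 in migDC2 (16.6 ± 3.7, adjusted p = 0.0105).

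Zeb2 encodes a zinc-finger repressor needed for CD11b-lineage DC. It had 8 lower and 0 higher regions of 16. In the gene body, 31.7 kb downstream of the first start, chr2:45085469-45086049 was at 0 to 26.9 in DN migDC (median 4.4) and 51.3 to 66.5 in migDC2 (median 61.4), a difference of -51.6 ± 4.7 (adjusted p = 9.21e-05). A second element at 88.9 kb differed by -41.2 ± 5.5 (adjusted p = 0.000768). The region at the first start, by contrast, had mean percentiles of 17.7 and 18.8 and did not pass (adjusted p = 0.892).

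Fosl2, an AP-1 subunit gene, had 6 lower regions of 9. At chr5:32194214-32194928, DN migDC were at 0 to 22.7 (median 20.2) and migDC2 at 47.8 to 62.4 (median 53.4), without overlap (-39.8 ± 4.9, adjusted p = 0.000461). Irf4, whose product drives migration and type 2 functions of cDC2, had 1 higher and 2 lower regions of 8. The higher one (chr13:30760970-30761754) was at 40 to 58.5 in DN migDC and 11.5 to 40.5 in migDC2, a difference of 24.9 ± 5.0 that was 8.4 over the 30000 strongest peaks (adjusted p = 0.213). The lower one with the smallest p (chr13:30769094-30769713) was at 0 to 22.2 and 32.9 to 50. Mgl2, a C-type lectin gene of dermal cDC2, had 1 lower region of 3 (-17.3 ± 4.4, adjusted p = 0.0185), at 10.4 to 25.6 in DN migDC and 21.1 to 39.5 in migDC2, and it did not pass in lettered libraries alone (-13.2, adjusted p = 0.165). No region of Klf4 passed, and the region with the smallest p there gave -3.2 ± 1.1 (adjusted p = 0.0623). With peaks ranked by −log10 p this Klf4 region did pass as lower (-3.9, adjusted p = 0.0175), so the outcome depended on the ranking.

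**Figure D1:**
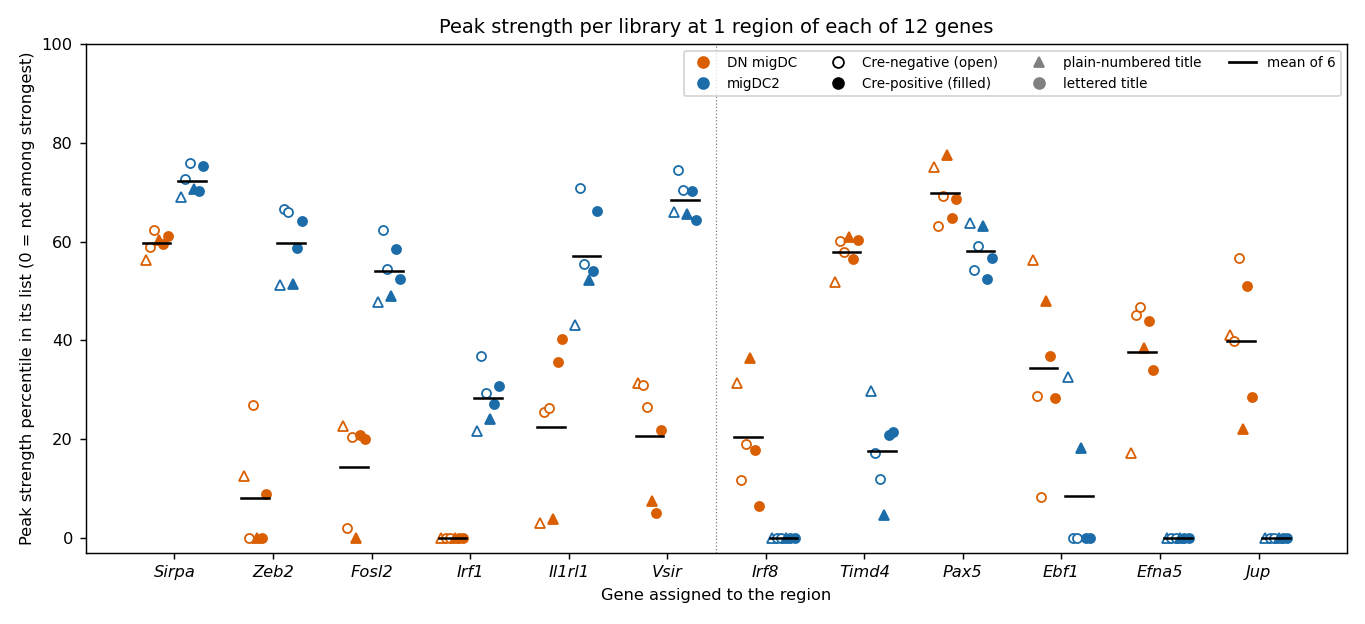
Peak strength percentile (y axis) in each of the 12 libraries at 1 region of each of 12 genes (x axis), with DN migDC in orange and migDC2 in blue, Cre-negative libraries open, Cre-positive ones filled, plain-numbered titles as triangles, lettered titles as circles, and bars at the mean of 6. At Zeb2, DN migDC lie at 0 to 26.9 and migDC2 at 51.3 to 66.5, and at the Irf8 element all migDC2 libraries lie at 0.

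The chemokine genes Ccl17 and Ccl22 encode ligands of CCR4, which draws Th2 and regulatory T cells, and lie next to each other on chromosome 8. Both were open in both subsets, and the peaks of DN migDC were weaker. Type 2 and STAT6-STAT5 response genes as a list had 38 of 165 regions lower (23%) and 7 higher (4.2%), with a median of -3.86. In lettered libraries alone 20 were lower (12.1%) and 8 higher (4.8%), against 8.0% and 5.4% of all regions.

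The promoter region of Ccl22 (chr8:94744759-94746516) was at 86.2 to 90.6 in DN migDC (median 88.8) and 91.3 to 94.6 in migDC2 (median 93.1), a difference of -4.4 ± 0.5 (adjusted p = 0.000398). Although small, the difference left no overlap between the subsets. Of the 9 tested regions of Ccl22, 8 were lower and 0 higher. Those downstream of the gene differed more: an element 8.7 kb from the start was at 7.9 to 46.2 in DN migDC and 58.7 to 96.9 in migDC2 (-39.0 ± 7.5, adjusted p = 0.00536). The third Cre-positive migDC2 library had the same percentile, 96.9, at 3 neighbouring Ccl22 regions. At Ccl17, 4 of 6 regions were lower. Its promoter region (chr8:94809568-94811376) was at 80.6 to 87.3 in DN migDC (median 84.6) and 91.5 to 92.5 in migDC2 (median 91.9), again without overlap (-7.7 ± 1.1, adjusted p = 0.00107).

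The promoters of 4 named genes whose region at the start passed and left no overlap between the subsets are shown here. They are the 250 bases before the start, 5′ to 3′ on the gene's strand, from the RefSeq promoter table of GRCm38.p6, the assembly of mm10. Each tested region reaches beyond the bases shown, so its difference cannot be placed within them. Capitals mark matches to any of 14 motifs searched on both strands (AP-1, an AP-1 and IRF composite, ISRE, PU.1, EBF, RUNX, NF-kB, STAT, CEBP, E-box, KLF, CTCF, NFIL3 and POU). For Ccl22 (chr8:94745434-94745683, plus strand), Ccl17 (chr8:94810203-94810452, plus strand) and Socs3 (chr11:117969367-117969616, minus strand) the region was lower in DN migDC, and for Efna5 (chr17:62881318-62881567, minus strand) it was higher.
Ccl22: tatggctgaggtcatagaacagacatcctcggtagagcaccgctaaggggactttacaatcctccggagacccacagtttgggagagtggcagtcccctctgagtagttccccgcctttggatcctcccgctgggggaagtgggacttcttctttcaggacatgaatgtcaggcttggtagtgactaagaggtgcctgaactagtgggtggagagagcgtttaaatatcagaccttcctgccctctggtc
Ccl17: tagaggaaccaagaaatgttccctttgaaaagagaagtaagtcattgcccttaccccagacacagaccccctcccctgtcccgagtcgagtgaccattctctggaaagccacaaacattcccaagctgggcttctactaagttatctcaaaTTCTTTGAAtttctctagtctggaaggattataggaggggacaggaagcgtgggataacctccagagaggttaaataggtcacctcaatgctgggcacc
Socs3: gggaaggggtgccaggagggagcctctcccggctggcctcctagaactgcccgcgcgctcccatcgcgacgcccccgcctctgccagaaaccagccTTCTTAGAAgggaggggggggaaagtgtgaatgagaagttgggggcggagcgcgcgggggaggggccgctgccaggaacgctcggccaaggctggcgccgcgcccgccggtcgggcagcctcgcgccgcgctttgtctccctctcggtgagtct
Efna5: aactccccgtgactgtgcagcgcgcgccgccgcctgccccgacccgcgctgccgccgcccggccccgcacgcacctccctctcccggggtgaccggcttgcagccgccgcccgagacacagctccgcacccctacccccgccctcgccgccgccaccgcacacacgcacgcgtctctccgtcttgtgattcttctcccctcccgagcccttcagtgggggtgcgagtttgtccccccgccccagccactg
Ccl17 and Socs3 each held 1 match to the STAT motif TTCNNNGAA in this window. Among all 32619 promoter windows of 300 bases, 250 before to 50 after a start, 8.3% held that motif.

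Over all promoter windows, 1495 overlapped a region higher in DN migDC and 422 a lower one. The AP-1 motif TGANTCA stood in 16.1% of the windows with a lower region, 3.6% of those with a higher one, 4.7% of those whose region did not pass and 7.8% of all windows. For the PU.1 motif GAGGAAGT these shares were 5.9%, 3.0%, 3.7% and 3.2%. The E-box motif CAGCTG stood in 22.5% of windows with a lower and 15.8% of those with a higher region (16.4% of all windows), and the KLF motif GGGNGTGG in 22.5% and 26.4% (17.7% of all). Base composition differed too, with a mean GC content of 55.8% in windows with a lower region and 62.7% in those with a higher one, and its part in the motif shares was not tested. These motif shares are descriptions of the windows, and motifs of the distal regions were not analysed here.

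Other receptors of the type 2 list were also lower in DN migDC. Il1rl1 encodes ST2, the receptor for interleukin-33, and had 5 lower and 0 higher regions of 10. At chr1:40412331-40412845, in the annotated gene body, DN migDC were at 3.0 to 40.3 (median 26) and migDC2 at 43.2 to 70.8 (median 54.8), without overlap (-34.6 ± 4.5, adjusted p = 0.000628). The lowest DN migDC values there, 3.0 and 3.8, were those of the plain-numbered libraries. Il4ra, the receptor chain shared by interleukin-4 and interleukin-13, had 5 lower regions of 10. Its promoter region (chr7:125551285-125553889) overlapped between subsets, at 86.7 to 90.6 and 88.9 to 93.7 (-3.5 ± 0.8, adjusted p = 0.0143), and its difference was -2.7 in lettered libraries alone (adjusted p = 0.125) and 0.1 with peaks ranked by −log10 p. Pdcd1lg2, which encodes PD-L2, was mixed, with 4 higher and 4 lower regions of 21. A higher one (chr19:29486305-29487269) was at 83.9 to 90.4 in DN migDC and 79.2 to 88.1 in migDC2. The lower one with the smallest p, chr19:29488047-29488749, was at 0 to 36.5 and 34.7 to 54.9. With peaks ranked by −log10 p neither passed: the differences went from 4.0 to 1.9 (adjusted p = 0.0791) and from -32.4 to -14.6 (adjusted p = 0.0641).

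Genes of the cDC1 lineage did not move as a group. Of 192 tested regions 20 (10.4%) were higher and 30 (15.6%) lower in DN migDC, and the median was -0.95. Irf8, the lineage's defining transcription factor and also a B cell and plasmacytoid DC factor, had 6 higher and 2 lower regions of 21. The Irf8 promoter was equally open, with a mean percentile of 91.5 in both subsets (adjusted p = 0.932). An element 61.1 kb downstream of the start (chr8:120797052-120797812) had a peak in all 6 DN migDC libraries, at 6.4 to 36.4 (median 18.4), and in none of migDC2 (20.5 ± 3.9, adjusted p = 0.00507). At 10.9 kb upstream the mean percentiles were 47.8 and 17.6 (adjusted p = 0.0085). The lower region with the smallest p lay 28.5 kb upstream (chr8:120707292-120708389), at 66.2 to 76.3 in DN migDC and 75.9 to 82.8 in migDC2.

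**Figure D2:**
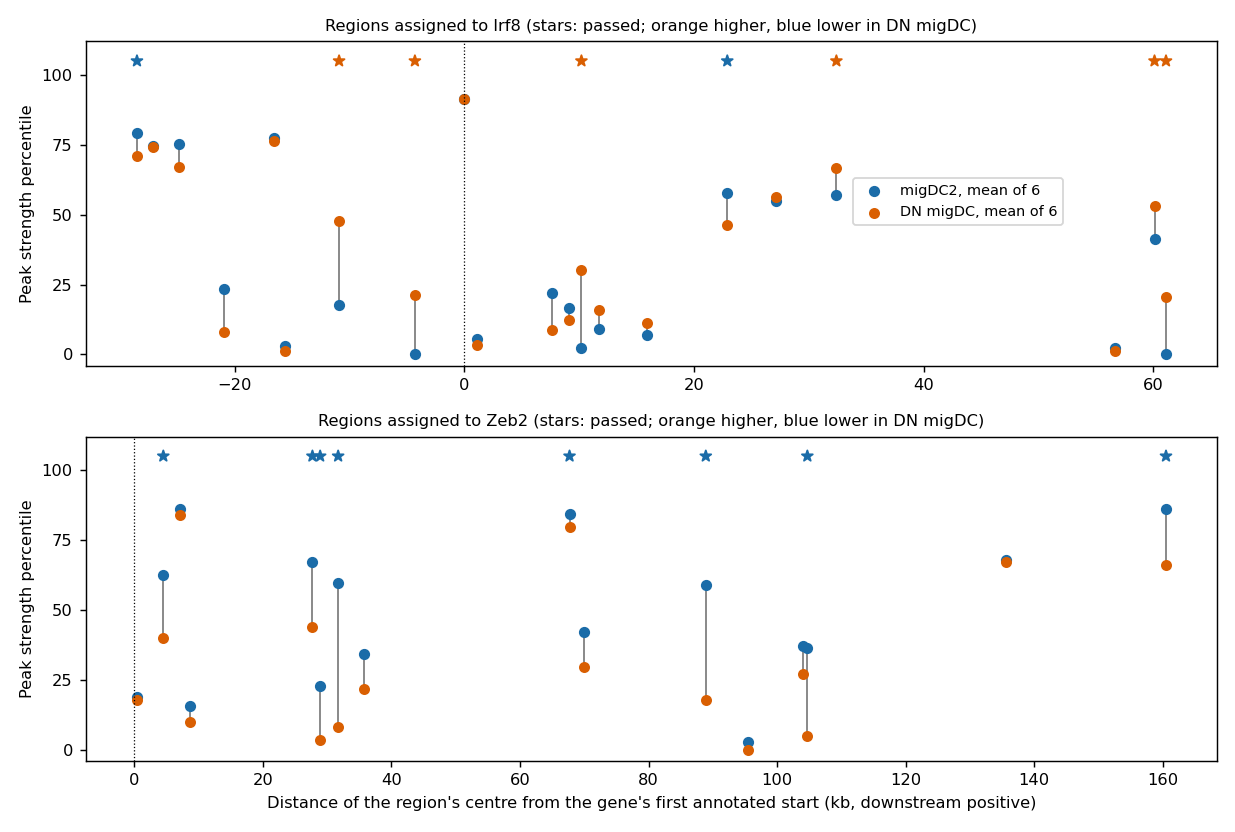
Mean peak strength percentile of 6 libraries (y axis) at every tested region assigned to Irf8 (top) and Zeb2 (bottom), by distance of the region's centre from the gene's first annotated start in kb (x axis), DN migDC in orange and migDC2 in blue, with a star above each region that passed. At Irf8, 6 regions were higher and 2 lower in DN migDC while the promoter stood at 91.5 in both, and at Zeb2 all 8 passing regions were lower.

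Within the cDC1 list, Zfp366, which encodes the DC factor DC-SCRIPT, had 8 lower and 3 higher regions of 29. Its region with the smallest p (chr13:99230158-99231102) was at 34.7 to 52.4 in DN migDC and 60.6 to 73.1 in migDC2 (-24.3 ± 3.2, adjusted p = 0.000737). Batf3, the partner of IRF8 in cDC1, had 4 lower and 0 higher regions of 13, and Cadm1, an adhesion molecule gene, 3 higher and 1 lower of 11; both were picked here after their values were seen. None of the 4 tested Xcr1 regions or the 2 tested Clec9a regions passed, and these are the genes of receptors that define cDC1.

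Irf1 encodes a transcription factor induced by IFN-γ and was the list gene with the most lower regions, 13 of 20, with 0 higher. At chr11:53761147-53761698, 8.6 kb upstream, all DN migDC libraries stood at 0, although 2 had a weak peak, and migDC2 at 21.6 to 36.9 (median 28.3; difference -28.3 ± 2.7, adjusted p = 0.000126). The IFN-γ pathway list had 25 of 145 regions lower (17.2%) and 4 higher (2.8%), and Irf1 gave 13 of those 25. No region of Ifngr1 passed; the region with the smallest p was at 49.8 to 73.8 in DN migDC and 72.2 to 76.2 in migDC2 (-5.6 ± 3.0, adjusted p = 0.207). The library at 49.8 was the one that stood apart, and the other 5 were at 68.9 to 73.8. IFN-γ-induced genes had 10 lower (9.4%) and 3 higher (2.8%) of 106 regions, and type I IFN-induced genes 7 lower (15.6%) and 2 higher (4.4%) of 45. In lettered libraries alone, where 8.0% of all regions were lower, the lower counts were 6 (5.7%) and 2 (4.4%).

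The tolerance-associated list had 28 of 127 regions lower (22.0%) and 6 higher (4.7%). Socs3, a feedback inhibitor of cytokine signalling, had 6 lower regions of 17, and its promoter region (chr11:117967803-117970738) was at 90.5 to 93.9 in DN migDC and 95.1 to 96.9 in migDC2 (-4.0 ± 0.4, adjusted p = 0.000221). Vsir, which encodes the checkpoint ligand VISTA, had 5 lower regions and 1 higher of 13. At chr10:60373913-60374753 DN migDC were at 5.0 to 31.4 (median 24.3) and migDC2 at 64.4 to 74.4 (median 68.1), a difference of -48.0 ± 4.0 (adjusted p = 6.42e-05). Il10 had 4 lower regions of 8, the first of them (chr1:131033706-131034227) at 7.0 to 28.7 and 42.3 to 64.5. Cd274, which encodes PD-L1, had 1 higher and 2 lower regions of 11. Its higher region was at 74.4 to 83.2 in DN migDC and 71.5 to 77.0 in migDC2, and without any of 5 single libraries its adjusted p was 0.0503 to 0.0596. In the same order, the lower one with the smallest p was at 32.1 to 53.0 and 50.8 to 69.5.

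Among DC maturation and migration genes 60 of 464 regions were lower (12.9%) and 12 higher (2.6%). The lower share was near that of all tested regions. In lettered libraries alone 33 were lower (7.1%) and 16 higher (3.4%), against 8.0% and 5.4% of all regions. Without the library that stood apart 61 were lower (13.1%) and 23 higher (5.0%), against 12.5% and 9.6%. Cd40, through which helper T cells activate DC, had 8 lower regions of 11, and the one with the smallest p (chr2:165048847-165050138) was at 71.9 to 78.3 in DN migDC and 86.7 to 92.2 in migDC2 (-13.9 ± 0.8, adjusted p = 1.87e-05). Ccr7, whose product guides DC to the node, had 2 lower regions of 11, one of them at 3.2 to 29.2 and 37.5 to 51.2 (-25.3 ± 5.2, adjusted p = 0.00752). Clu, which encodes the secreted chaperone clusterin, had 4 lower regions of 6.

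Pattern receptor genes were more often lower. The list of C-type lectins and pattern receptors had 24 of 104 regions lower (23.1%) and 3 higher (2.9%). Tlr2, a receptor for bacterial lipoproteins, had 5 lower regions of 7, with chr3:83844794-83845698 at 38.5 to 61.0 in DN migDC and 72.0 to 78.5 in migDC2. Chemokine receptors and integrins had 18 of 129 regions lower (14%) and 8 higher (6.2%). Itgav, the αV integrin chain that can activate TGF-β, had 7 lower regions of 13, and at chr2:83729360-83729880 DN migDC were at 0 to 16.8 and migDC2 at 43.8 to 56.0 (-39.9 ± 3.4, adjusted p = 7.35e-05). NF-kB factors and regulators had 20 of 130 lower (15.4%) and 4 higher (3.1%), and 10 (7.7%) and 1 in lettered libraries alone, where 8.0% of all regions were lower. Nfkbiz had 4 lower regions of 15 and a small promoter difference, at 91.5 to 94.9 and 94.2 to 95.9, which did not pass in lettered libraries alone (-1.3, adjusted p = 0.0933).

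Transcription factor lists were closer to the background. RUNX, ETS and KLF factors had 28 lower (11.6%) and 13 higher (5.4%) of 241 regions, and AP-1, BATF and MAF factors 14 lower (12.1%) and 9 higher (7.8%) of 116. Despite its name, the latter count includes neither Fosl2 nor Batf, Batf2 and Batf3. Fosl2 had 6 lower regions of 9, Batf 1 of 9, Batf2 2 of 2 and Batf3 4 of 13, with 0 higher in each. The closeness to the background thus holds for the list without these genes. Etv6, an ETS repressor gene with 81 tested regions, had 10 lower and 2 higher; at chr6:134129858-134130308 DN migDC were at 0 to 1.2 and migDC2 at 7.8 to 38.6. Runx2 had 5 lower and 3 higher regions of 35. Its lower region chr17:44663299-44664669 was at 80.2 to 91.4 and 91.2 to 96.3 (-6.7 ± 0.9, adjusted p = 0.000581). Fos had 5 lower and 2 higher regions of 25, the lower one with the smallest p at 65.8 to 83.6 and 84.9 to 92.0.

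Langerhans cell and skin DC genes were likewise near the background, with 20 of 165 regions lower (12.1%) and 11 higher (6.7%). Without the library that stood apart 23 were lower (13.9%) and 20 higher (12.1%), against 12.5% and 9.6% of all regions. None of the 6 tested regions of Cd207, the langerin gene, passed; the one with the smallest p was at 39.2 to 51.4 in DN migDC and 45.2 to 54.1 in migDC2 (adjusted p = 0.157). Epcam, an adhesion molecule of Langerhans cells, had 1 higher and 2 lower regions of 10: the region near its start (chr17:87636186-87637302) was at 28.6 to 75.7 and 4.1 to 40.6, and one in the gene body at 0 to 14.3 and 23 to 42.9. In the higher one the DN migDC maximum of 75.7 was the library that stood apart, and lettered libraries alone gave 16.7 (adjusted p = 0.142). Smad3, a transducer of TGF-β signals, had 5 lower regions of 17, the first at 33 to 50.3 and 55.7 to 65.4. Il1rn, the interleukin-1 receptor antagonist gene, had 4 lower regions of 5, of which the one with the smallest p (-37.4 ± 4.5, adjusted p = 0.000411) was at 0 in both plain-numbered DN migDC libraries. Of 72 regions of MHC class II genes, 5 were higher (6.9%) and 2 lower (2.8%). The higher share rose to 15.3% (11 regions) without the library that stood apart, against 9.6% of all regions, and to 11.1% in lettered libraries alone, against 5.4%. H2-DMa, which encodes a chain of the peptide-loading chaperone H2-DM, had a region at 32.5 to 58.1 in DN migDC and 11.9 to 38.7 in migDC2 (22.2 ± 3.8, adjusted p = 0.00263), a gene chosen after its values were seen. Of 33 MHC class I regions 1 was lower.

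**Figure D3:**
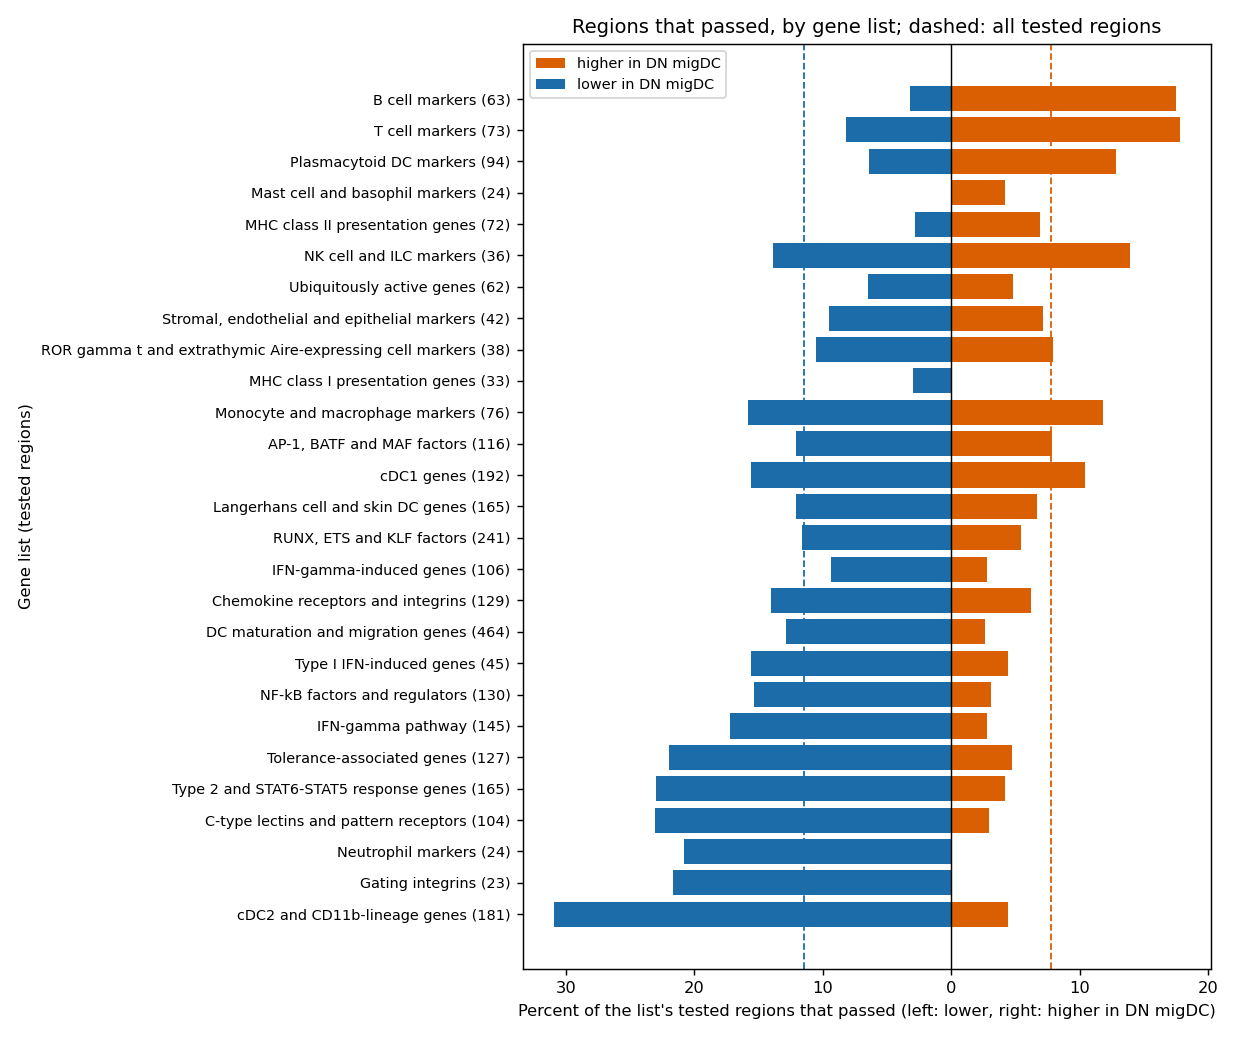
Percent of each gene list's tested regions that were lower (blue, left) or higher (orange, right) in DN migDC, with the number of tested regions in brackets and dashed lines at the shares of all tested regions, 11.5% and 7.73%. Lower regions are most frequent in the cDC2 and CD11b-lineage list (30.9%), and higher ones in the T cell (17.8%) and B cell (17.5%) marker lists.

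Lymphoid and plasmacytoid genes had more higher regions. T cell markers had 13 of 73 regions higher (17.8%) and 6 lower (8.2%), with a median difference of 3.60. A single gene, Tcf7, gave 6 of those 13. Of 17 T cell genes with a tested region, 5 had higher regions only, 3 lower only, 1 both and 8 neither. B cell markers had 11 of 63 higher (17.5%) and 2 lower (3.2%), with a median of 7.62. Plasmacytoid DC markers had 12 of 94 higher (12.8%) and 6 lower (6.4%), with a median of 2.80. Of these, Runx2 gave 3 of the higher and 5 of the lower regions. Neither tested region of Siglech, a gene of that list, passed (limma, adjusted p = 0.139 and 0.948). In lettered libraries alone, where 5.4% of all regions were higher, the higher counts for T cell, B cell and plasmacytoid DC markers were 15 (20.5%), 4 (6.3%) and 9 (9.6%). The B cell share was thus near the background there. Without the library that stood apart, where 9.6% of all regions were higher, the counts were 21 (28.8%), 14 (22.2%) and 16 (17.0%) in the same order. The T cell gene Cd3d had a peak at 73.8 to 86.0 in all 12 libraries and did not differ detectably (adjusted p = 0.857).

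Tcf7, which encodes TCF-1, a factor of T cells and early progenitors, had 6 higher and 0 lower regions of 13. At chr11:52265297-52266505 DN migDC were at 84.6 to 91.5 (median 89.3) and migDC2 at 81.6 to 86.0 (median 82.6), with a small overlap (5.2 ± 0.8, adjusted p = 0.00213). Ranked by −log10 p the difference was 3.0 (adjusted p = 0.0589). Timd4, which encodes the phosphatidylserine receptor TIM-4 of resident macrophages and some DC, was higher in all 5 of its tested regions. The first of these (chr11:46795555-46796221, 14.9 kb upstream) was at 51.9 to 61.0 in DN migDC (median 59.0) and 4.6 to 29.8 in migDC2 (median 19.0), a difference of 40.3 ± 4.3 (adjusted p = 0.000245). The monocyte and macrophage list, in which Timd4 gave 5 of the higher regions, had 9 higher (11.8%) and 12 lower (15.8%) of 76 regions. In lettered libraries alone 6 were higher (7.9%) and 5 lower (6.6%), against 5.4% and 8.0% of all regions. Adgre1, which encodes the macrophage marker F4/80, had 1 higher and 2 lower regions of 8. The higher one (chr17:57349160-57349537) was at 0 to 22.8 in DN migDC and at 0 in all migDC2 libraries (12.9 ± 3.2, adjusted p = 0.0178). At the gene end a lower one was at 51.3 to 62.1 in DN migDC and 62.9 to 73.3 in migDC2 (adjusted p = 0.00347).

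Pax5, the factor that commits cells to the B lineage, had 4 higher and 0 lower regions of 13, and Ebf1, which acts upstream of it, 2 higher of 6. The Pax5 region chr4:44703975-44704854 was at 63.2 to 77.5 in DN migDC (median 69.0) and 52.4 to 63.7 in migDC2 (median 57.8), with overlap (11.6 ± 1.8, adjusted p = 0.00168). At Ebf1 (chr11:44616892-44617374) the DN migDC libraries were at 8.3 to 56.2 (median 32.8). Of the migDC2 libraries only the plain-numbered ones were above 0, at 32.6 and 18.3 (26 ± 4.8, adjusted p = 0.00437).

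B cell marker signal varied among libraries of one subset. Of the 89 regions of the list, 49.4% to 78.7% had a peak in DN migDC libraries and 34.8% to 67.4% in migDC2 libraries, against 58.9% to 71.5% and 56.5% to 73.8% of all regions. The highest shares in each subset, 78.7% and 77.5% in DN migDC and 67.4% and 61.8% in migDC2, were those of the plain-numbered libraries. Among defining B cell genes, the 2 Cd79b regions had peaks in 3 and 2 DN migDC libraries and in 0 of migDC2. The region at Cd79a was at 39.7 and 45.7 in the plain-numbered DN migDC libraries, 22.4 in 1 lettered one, 0 in the other 3, and 7.0 in 1 migDC2 library and 0 in the other 5 (adjusted p = 0.0783). The gene end of Ms4a1, which encodes CD20, was at 58.4, 0, 6.9, 13.8, 54.0 and 38.4 in DN migDC, and in migDC2 at 31.3 and 19.6 in the plain-numbered libraries and 0 in the others (adjusted p = 0.176). None of the tested regions of Cd79a, Cd79b or Ms4a1 passed. Whether B cells among the sorted cells bear on the Pax5 and Ebf1 differences was not tested, and fewer cells with an open region cannot be told apart from weaker opening in each cell. None of the 4 tested Cd3e regions passed either. Among NK cell and ILC markers, 5 of 36 regions were higher (13.9%) and 5 lower (13.9%), against 7.73% and 11.5% of all regions. Neutrophil markers held 0 higher and 5 lower (20.8%) of 24, so these shares above the background rest on 5 regions each. Markers of mast cells and basophils had 1 higher and 0 lower of 24. The counts were 3 and 4 of 38 for ROR gamma t and Aire-expressing cells. They were 3 and 4 of 42 for stromal, endothelial and epithelial cells. Ubiquitously active genes had 3 higher and 4 lower of 62.

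**Figure D4:**
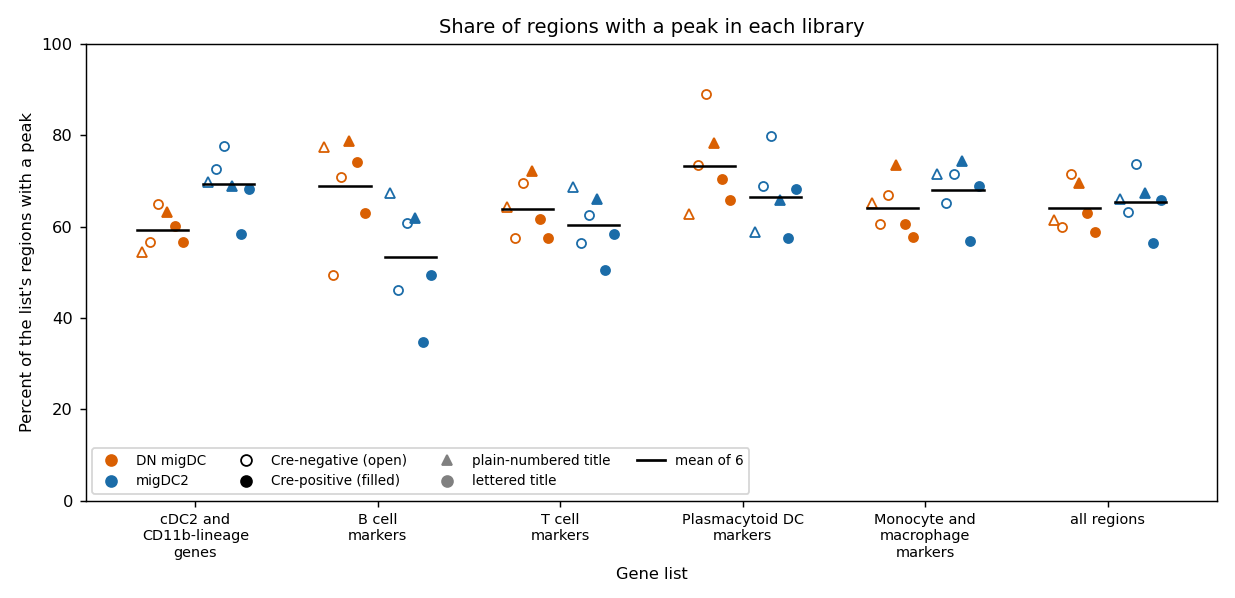
Percent of a gene list's regions that held a peak (y axis) in each library, for 5 lists and for all regions (x axis), with colours and symbols by subset, genotype and title series and bars at the mean of 6. B cell marker regions range from 49.4% to 78.7% in DN migDC and from 34.8% to 67.4% in migDC2, with the plain-numbered libraries (triangles) highest in each.

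Some regions held a peak in every library of one subset and in none of the other. There were 74 such regions for DN migDC and 246 for migDC2. Of the 522 regions that the exact test within genotype and title series could call, these were the ones that passed, 14.2% higher and 47.1% lower in DN migDC (each at the smallest possible p of 0.0139, adjusted p = 0.0227). The calls rest on that choice of regions and on the smallest p that the design allows. When all regions with at least 3 calls and 3 missing calls were tested, 0 of 22285 passed, and 0 passed without any one of the 4 plain-numbered libraries. Without such a library the smallest possible p no longer passed the adjustment, so that 0 says nothing about the values of those libraries. The difference in strength passed as well for 44 of the 74 and 165 of the 246.

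Among the 44 regions present only in DN migDC by both tests, the largest differences lay at Myo18a, Abca4, Jup, Efna5 and Sema3f, at 31.6 to 44.1 percentile points over the 10 genes named by rule. Jup encodes plakoglobin, a desmosome and adherens junction protein. Its gene-body region chr11:100392950-100394136 was at 22.1 to 56.7 in DN migDC and at 0 in all migDC2 libraries (39.9 ± 5.0, adjusted p = 0.00053). Efna5 encodes ephrin-A5, a ligand of Eph receptors, and had 5 higher regions of 8. At its promoter (chr17:62881346-62882616) DN migDC were at 49.5 to 90.9 (median 62.5), and migDC2 at 0 in 5 libraries and at 3.4 in 1 (65.3 ± 6.5, adjusted p = 0.000151). The other genes of this set were Cspg4b, Appl2, Bhlhe22, Usp10 and Rbms1. Over the 30000 strongest peaks the differences of Abca4 and Cspg4b were 4.1 (adjusted p = 0.199) and 2.1 (adjusted p = 0.34). At Rbms1 the library that stood apart was at 0 despite a peak.

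The 165 regions with peaks in migDC2 alone included Spata31d1c (chr13:65035598-65036468), at 41.9 to 55.6 in migDC2 (-52.2 ± 3.2, adjusted p = 1.87e-05). A region near Ahcy, the gene of the enzyme that clears S-adenosylhomocysteine, was at 40.2 to 58.6 (-51.2 ± 3.4, adjusted p = 2.41e-05). One near Rab7, a GTPase gene of late endosomes, was at 36.6 to 53.8 (-46.2 ± 3.1, adjusted p = 2.56e-05). The others named by rule, at Gipc2, Anks1, Rapgef4, Cep85, Ripor1, Ankrd66 and Zfp516, differed by -22.7 to -49.0. Over the 30000 strongest peaks the differences of Rab7 (-6.7, adjusted p = 0.0717), Ripor1 (-4.6, adjusted p = 0.245) and Ankrd66 (-4.5, adjusted p = 0.296) no longer passed.

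These regions were looked up in libraries that had not entered the test. None of the 74 DN migDC regions had a peak in any of the 4 germline migDC2 libraries. Of the 246 migDC2 regions, 78 had a peak in at least 1 germline migDC2 library and 0 in all 4; these lists are shorter, down to 32649 peaks. In resident DC, 44 of the 74 DN migDC regions had a peak in at least 1 of 6 cDC1 libraries and 27 in every one, while 32 had one in at least 1 of 6 cDC2 libraries and 6 in every one. For the 246 migDC2 regions the counts were 39 and 12 in cDC1 and 65 and 28 in cDC2. In migDC1, 36 of the 74 had a peak in at least 1 of 4 libraries and 23 in every one, and of the 246 these were 83 and 15. Single libraries had a peak at 31 to 41 of the 74 in cDC1, 8 to 30 in cDC2 and 23 to 33 in migDC1. Of all tested regions, 63.5% to 75.5% had one in single cDC1 libraries, 56.7% to 74.1% in cDC2 and 64.1% to 81.0% in migDC1. The 74 regions were found less often in each of these subsets than tested regions at large, but they were chosen for having no peak in migDC2. That choice alone can lower such shares, so no conclusion is drawn from them. Of the 246 migDC2 regions, chosen likewise, single libraries had a peak at 17 to 33 in cDC1, 38 to 61 in cDC2 and 17 to 58 in migDC1.

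All regions that passed were then looked up at an equal length of 32649 peaks per list. In cDC1, 60.4% to 62.9% of the regions higher in DN migDC and 24.4% to 29.1% of the lower ones were among the strongest peaks, against 45% to 48.3% of all tested regions. The gap between higher and lower regions was 32.3 to 38.5 percentage points in cDC1, 15.4 to 25.4 in cDC2 and 14.1 to 15.5 in migDC1. It did not overlap between cDC1 and cDC2, whose libraries are all plain-numbered. Those of migDC1 are all lettered, so subset and title series cannot be told apart there, and within DN migDC the gap was 30.5 and 33.2 in plain-numbered and 22.6 to 29.1 in lettered libraries. In germline migDC2 the order was the reverse or level, with a gap of -13.8 to 0.0. Gene-end regions, which are open in many cells, are more frequent among the higher regions, and their part in these gaps was not tested.

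**Figure D5:**
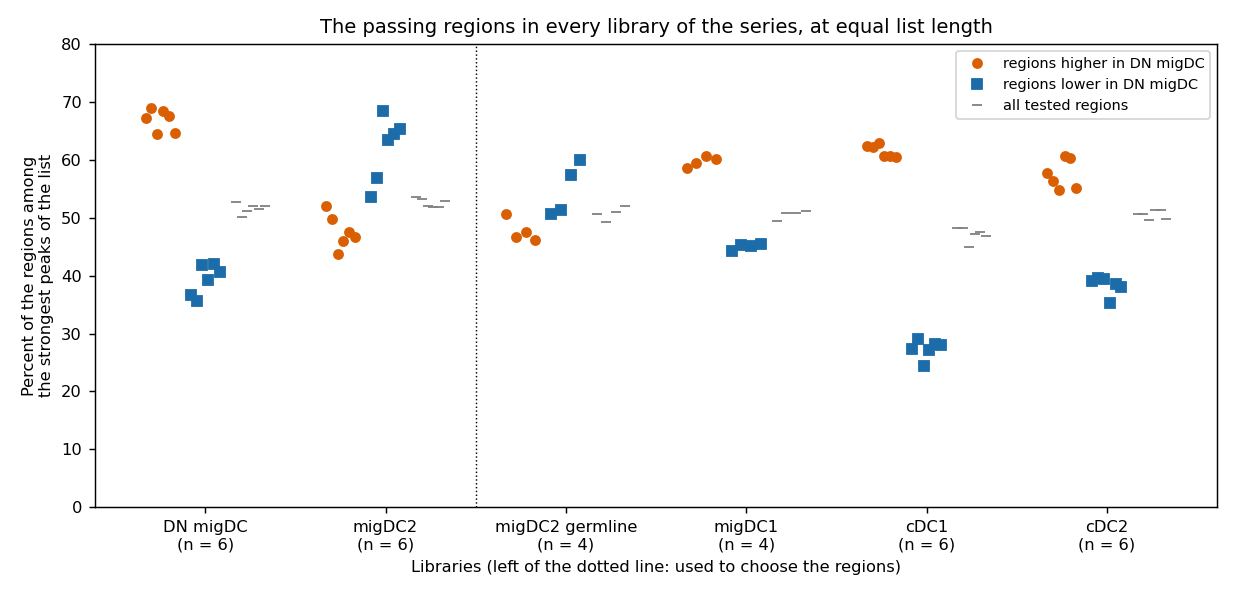
Percent of the regions higher (orange circles) or lower (blue squares) in DN migDC, and of all tested regions (grey dashes), that are among the 32649 strongest peaks (y axis) of each library, by subset (x axis); the 12 libraries left of the dotted line were used to choose the regions. In cDC1 the higher regions lie at 60.4% to 62.9% and the lower ones at 24.4% to 29.1%, and in germline migDC2 at 46.1% to 50.6% and 50.6% to 59.9%.

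Whether the subset difference depended on the Cre genotype was tested by an interaction term. None of the 60073 regions passed (0.0%, limma, smallest adjusted p = 1.0), and 1369 had an unadjusted p under 0.05. Within each genotype alone, with 3 libraries per subset, 0 regions passed (limma), 11780 having an unadjusted p under 0.05 in Cre-negative and 13228 in Cre-positive libraries. The subset difference of all 11555 passing regions had the same sign in both genotypes taken alone, but these libraries had also entered the selection.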

How the data were processed

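Omni-ATAC-seq peak lists of 12 libraries, 1 list per library, were compared. Per the submitters' processing notes the authors used Bowtie2, deepTools and Genrich with mm10; neither versions and settings nor any treatment of the transposase offset could be read there. The peak signal the authors deposited (minimum 200 in each list) ranked peaks within a list, and the deposited −log10 p at the summit broke ties. Depth is unknown and no counting error can be given.

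Peaks of all 32 lists were merged into 90465 regions (covered in 3 or more lists over 100 bp or more, median width 569 bp), and a peak counted when 50% or more of it, or of the region, was shared. Regions were assigned to protein-coding RefSeq genes of GRCm38.p6, at an end within 1000 bp, in the body, or distal within 50000 bp. Percentiles among the 54657 strongest peaks, the length of the shortest list, were tested with limma 3.58.1 (R 4.3.3, trend, ~ subset + genotype + title series, 8 residual degrees of freedom) in regions scored in at least 3 of 12 libraries, with Benjamini-Hochberg adjustment over all regions and a threshold of 0.05. On simulated data 57 of 100 moves of 20 points and 94 of 100 of 40 points were recovered, with 6 false calls. The simulated noise was normal and lacked the floor at 0 of the real percentiles, so these figures do not give the error rate of the real test. Presence was tested exactly within 4 strata of genotype and title series, in regions with calls in 50% of the libraries of every stratum. The 3 markers (Ighm, Zfp683, Tpsab1) had no match, and 1 gene of the lists is not reported here by name. Alternatives in ranking, filters, overlap, covariates and left-out libraries were tried.

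Genes named were the list genes with the most passing regions (24 at the most, no more than 4 from a list), 10 others in each direction with a peak in 6 and 0 libraries, and 20 given in any case; the region shown has the smallest p. The comparison, the lists and the rule were chosen with earlier results of these data known.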

Additional observations from a re-analysis of the deposited data

Results flagged for a closer look

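In 11 cases 1 of 6 libraries lay far from the other 5, among 140 groups of 6 examined; chance alone flags about 1 in 20. The mean correlation of migDC2 Cre-negative replicate 1 with its own subset was 0.92 against 0.94 to 0.95. That library was also low at the named regions of Etv6 (7.8 against 27.8 to 38.6) and Cep85 (5.2 against 22.1 to 32). DN migDC Cre-positive replicate 1 was low at Fos (65.8 against 78.7 to 83.6) and Ifngr1 (49.8 against 68.9 to 73.8).

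DN migDC Cre-negative replicate 2 was at 1.2 at Etv6 where the other 5 were at 0, and at 6.9 at Cspg4b against 33.4 to 48.6. DN migDC Cre-negative replicate 3 was at 8.1 at Itgae where the others were at 0. Among migDC2, Cre-positive replicate 2 was low at Spata31d1c (41.9 against 51.7 to 55.6) and at the upstream Ccl17 region (95.9 against 98.8 to 99.3), and Cre-negative replicate 3 was low at Cd207 (45.2 against 51.0 to 54.1).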

How the results depend on the processing

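The number of regions that passed was 11555 and kept within 1.5 times of that under no genotype term, no filter beyond 1 library, at least 6 libraries, ranking by −log10 p, any 1 bp of overlap, the normal score, a consensus from the 12 lists and lettered libraries alone (8048 to 11992). It was 7023 (2541 higher, 4482 lower) without the title series term, 6101 (2607 and 3494) over the 30000 strongest peaks, where 32852 regions were tested, and 7398 (2554 and 4844) with overlap of at least 50% of the region, where 57347 were tested; the cause was not tested. Plain-numbered, Cre-negative and Cre-positive libraries alone gave 0, 0 and 0 (limma; 5798, 11780 and 13228 at an unadjusted p under 0.05) with 4, 6 and 6 samples. Leaving out 1 library gave 8269 to 13264 regions, 2938 to 5738 higher and 5305 to 7526 lower; the fewest higher regions came without migDC2 Cre-negative replicate 2 (2938) and without migDC2 Cre-positive replicate 3 (3023).

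Same-numbered lettered libraries correlated in their deviations at r = 0.26 (numbers 1 and 3, Cre-negative) and 0.07 (2 and 4, Cre-positive). With 1 value per genotype, this does not settle whether the numbers pair samples, and the main fit did not pair them. With the replicate block 10975 regions passed (4416 higher, 6559 lower), of which 3870 and 6131 were among those reported. The block changed no call of the 65 named regions. Ranking by −log10 p reversed Il4ra (0.1), the only reversal among them in the alternatives run on named regions. That ranking also gave 1 named region, at Klf4, a call it did not have (-3.9, adjusted p = 0.0175). Of the 65, 6 lost their call in lettered libraries alone, 7 without the title series term, 3 by −log10 p, 7 of the 40 that could be tested over the 30000 strongest peaks, and 0 to 4 with 1 library left out (Cd274, Itgam, Itgax, Mgl2 and Nfkbiz).

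The presence test called 320 regions; it called 496 at equal list length and 0 of 22285 with at least 3 called and 3 missing (exact test, 1377 at an unadjusted p under 0.05; more regions tested). Leaving out 1 library gave 0 to 502: without any plain-numbered library (replicate 1) the smallest possible p no longer passed the adjustment, and 502 came without DN migDC Cre-negative replicate 3. The interaction gave 0 regions, and 0 to 2 with 1 library left out (1 without DN migDC Cre-negative replicate 1, migDC2 Cre-negative replicate 1, migDC2 Cre-negative replicate 3 or migDC2 Cre-positive replicate 2, and 2 without migDC2 Cre-positive replicate 1). The difference in peak number of 648.7 was -850.0 for peaks of at least 400 signal and ranged from -1591.1 to 2889.2 with 1 library left out (-833.3, -1591.1 and -1045.4 without DN migDC Cre-negative replicate 3, DN migDC Cre-positive replicate 1 and migDC2 Cre-positive replicate 2). List counts without DN migDC Cre-positive replicate 1, in lettered libraries alone and over 30000 peaks were added after seeing the data.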

Other observations

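Outside the gene lists, the genes with the most passing regions differed between the directions. Foxn3, a forkhead repressor gene, had 9 higher regions of 35 tested, Aff3, a nuclear factor gene expressed in lymphoid cells, 8 of 17, and Sdccag8 7 of 15. Ksr1, a scaffold gene of the MAP kinase cascade, had 15 lower regions of 32, and Prex1, a Rac activator gene, 15 of 46. Cd44, the hyaluronan receptor gene, and Chst11, a chondroitin sulfotransferase gene, had 13 lower regions each, of 27 and 29 tested. Plxnd1, a semaphorin receptor gene, had 11 of 16. Long genes have more tested regions and so more chances to be counted, and these genes were ordered by the counts themselves.

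By chromosome, the share of regions higher in DN migDC ranged from 5.6% (X) to 8.9% (16), and the share lower from 6.7% (X) to 13.1% (2). Chromosome X had 1132 tested regions, and the sex of the mice in each library is not given in the sources used here.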
